A study of Homo sapiens with 6 samples.

Results

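The DNAJ genes encode the J-domain co-chaperones of the HSP70 machinery, also called HSP40 proteins. Members were all genes whose symbol in the platform annotation starts with DNAJ, and a probe counted as detected where its detection p lay under 0.05 on 3 arrays or more. The array carried 71 probes for 46 such genes. Of these, 47 probes for 35 genes were detected and tested, among 10779 genes tested and 18665 genes on the array with 1 symbol. The rule uses the symbol and detection on arrays of either group. RNA came from A549, an established human lung adenocarcinoma cell line. The tested cells had been given DAMTC, a compound known here by its code name, at 160 µg/ml for 24 h (3 arrays), and control A549 cells were set beside them (3 arrays). The sources used here do not state what the control cells were given. Each group is described as a biological triplicate, with no separate cultures named, and a p-value here covers only the spread from array to array. The arrays shared a BeadChip, DAMTC in its last positions and control in its first, so treatment and position cannot be told apart.

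A J-domain protein brings an unfolded client to an HSP70 chaperone and stimulates HSP70 to hydrolyse ATP, which closes the chaperone on its client. Nucleotide exchange factors then open it again. Class A members carry a glycine- and phenylalanine-rich stretch and a zinc-binding region beside the J domain, class B members the glycine- and phenylalanine-rich stretch alone, and class C members share little beyond the J domain and are tied to special places or clients. In the endoplasmic reticulum (ER) the partner is HSPA5 (BiP), and DNAJB9, DNAJB11, DNAJC1, DNAJC3 and DNAJC10 work with it. In the cytosol, DNAJB1 and DNAJA1 are known targets of heat shock factor HSF1, which binds repeated GAA and TTC units in promoters.

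Of 32 tested members with a promoter window in RefSeq (GRCh38.p14, 250 bases before to 50 after a start site), 3 genes held the 2-unit form GAANNTTC, read on both strands. They were DNAJA1, DNAJB1 and DNAJB6. The 3-unit form, in which GAA and TTC alternate with 2 bases between units and which contains the 2-unit form, was in the windows of DNAJA1 and DNAJB6. Over all 35116 windows, 6.77% held the 2-unit and 0.49% the 3-unit form, shares by window beside counts by gene. One stretch of each gene is shown because these are the only members with such a match among the 32. The capitals mark the matches within it. The tested members DNAJC1, DNAJC22 and DNAJC24 had no window and were not searched. A further 2-unit match of DNAJA1 at positions -198 to -191, and 1 in a second window of DNAJB1, at positions 1 to 8 from another start site, lie outside the stretches. Positions count the start site as 0. The DNAJA1 stretch is chr9:33025123-33025292 on the plus strand, with the 3-unit match at positions 3 to 15. The DNAJB1 stretch is chr19:14518396-14518497 on the minus strand, with 2-unit matches that start at positions -77 and -47. The DNAJB6 stretch is chr7:157336854-157337003 on the plus strand, with the 3-unit match at positions -131 to -119.
DNAJA1: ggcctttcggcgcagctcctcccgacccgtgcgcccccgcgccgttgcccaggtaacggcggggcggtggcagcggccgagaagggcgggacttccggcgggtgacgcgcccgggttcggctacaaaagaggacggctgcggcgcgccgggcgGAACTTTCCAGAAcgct
DNAJB1: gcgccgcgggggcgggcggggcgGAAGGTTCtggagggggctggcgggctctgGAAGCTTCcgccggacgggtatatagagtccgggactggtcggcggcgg
DNAJB6: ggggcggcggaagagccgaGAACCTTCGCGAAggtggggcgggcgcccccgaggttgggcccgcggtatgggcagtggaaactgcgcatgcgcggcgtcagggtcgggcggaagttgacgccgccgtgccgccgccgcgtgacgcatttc

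The ER stress element (CCAAT and CCACG with 9 bases between) was in 0 of the members' windows and in 0.0769% of all windows. The element TGATGNAA, bound by CEBP and ATF factors, was in 0 of them and in 3.62% of all windows. CCAAT alone was in the windows of 13 of the 32 genes, against 34.6% of all windows. The count is by gene and the share by window. These are matches of letters in 1 window each or a few, with no test.

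All 6 epithelial markers examined (EPCAM, KRT8, KRT18, KRT19, CDH1 and KRT7) were detected on all 6 arrays. CDH1, the adhesion protein E-cadherin, fell by 1.64 ± 0.43 (limma adjusted p = 0.0238), and the other epithelial markers did not pass. Of 8 markers of leukocytes, endothelium and fibroblasts, 6 were not detected on 3 or more arrays, while CD68 and PECAM1 were. CD68 differed by 1.10 and PECAM1 by 0.63 with DAMTC above all controls (limma adjusted p = 0.0626 and 0.127), and their part in the results was not tested. DAMTC arrays had 16329 to 17058 probes detected and control arrays 17357 to 17835, with a median of 36 to 38 beads behind each probe. The groups separated on the first principal component (62.4% of the variance), and on the second (22.9%) control replicate 1 lay apart from the other controls. Values below are normalized log2 intensities, and differences are DAMTC minus control on that scale.

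With DAMTC, 8 of the 35 tested DNAJ genes rose and 4 fell at a Benjamini-Hochberg adjusted p under 0.05 in limma, and 23 did not pass. The risers were DNAJB2, DNAJC27, DNAJC24, DNAJB1, DNAJA1, DNAJC5, DNAJC3 and DNAJC25, and the fallers were DNAJC10, DNAJC17, DNAJC30 and DNAJA3. Levels are relative within an array, so a change in cells that hold a transcript and a change in RNA per cell cannot be told apart. Differences ran from -1.42 to 2.59 with a median of 0.03, beside a median of -0.04 over all genes tested. Called members made up 34.3%, beside 24.9% of all genes tested (12.2% higher and 12.8% lower). The 3 DAMTC and 3 control values did not overlap for 22 members (62.9%), beside 41.9% of all genes tested. DAMTC lay above for 11 of the 35 tested members and below for 11 of the 35, beside 20.2% and 21.7% of all genes tested. DNAJC30, DNAJB5 and DNAJC4 were each detected on only 3 arrays, and DNAJC30 was detected on control arrays alone, so its pass through the filter came from the group in which it was higher. The fallers other than DNAJC30 numbered 3. With no detection filter, DNAJC30 had an adjusted p of 0.0334, and 3 members fell, since DNAJA3 was then at 0.0501. Members that fell numbered 1 without DAMTC replicate 1, DAMTC replicate 3 or control replicate 3, 2 without DAMTC replicate 2 or control replicate 2, and 8 without control replicate 1. With arrays scaled to the same median, which puts the median over all genes at -0.26, 6 members rose and 10 fell and the members' median was -0.16.

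**Figure D1:**
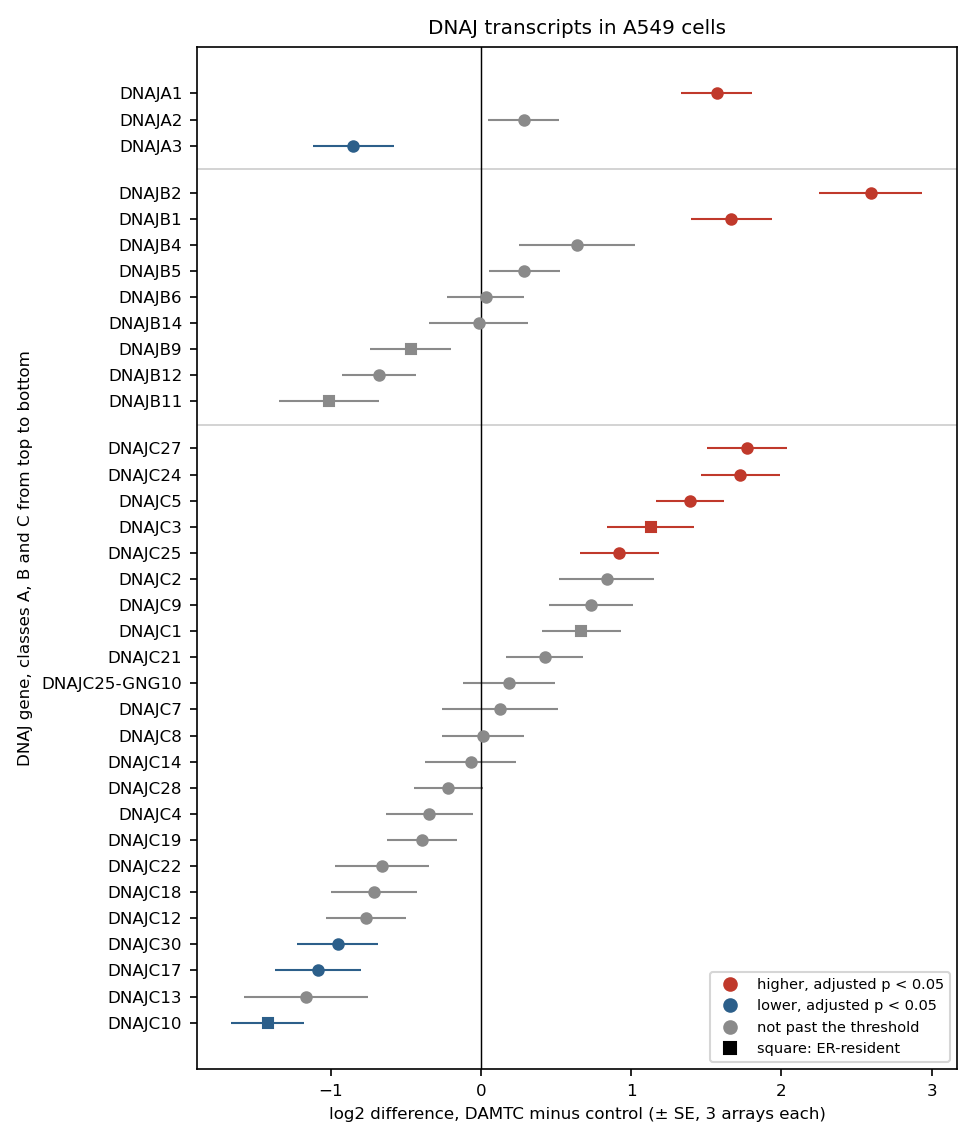
Log2 difference (DAMTC minus control, x axis, with SE, 3 arrays per group) of the 35 tested DNAJ genes, in classes A, B and C down the page and by size within a class. Red points rose, blue points fell and grey points did not pass adjusted p under 0.05, and squares are the 5 ER-resident members. The differences run from -1.42 (DNAJC10) to 2.59 (DNAJB2), with both signs in each class.

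Class A had 3 tested members: 1 rose, 1 fell and 1 did not pass. DNAJA1, a cytosolic partner of HSP70 and HSC70, read 13.42, 13.80 and 13.65 on the DAMTC arrays, against 11.95, 12.05 and 12.17 on the control arrays. Every DAMTC value lay above every control value, and DNAJA1 rose 2.97-fold (difference 1.57 ± 0.23 SE, n = 3 per group, limma adjusted p = 0.00219). DNAJA3, the class A member of mitochondria, read 11.43, 11.11 and 11.42 with DAMTC, against 11.76, 12.43 and 12.33 in controls. The groups did not overlap, the nearest values being those of DAMTC replicate 1 and control replicate 1, and DNAJA3 fell by 0.85 ± 0.27 (limma adjusted p = 0.0490). That call lies at the threshold and was lost without any 1 array other than control replicate 1 (adjusted p from 0.109 to 0.169). DNAJA2, a second cytosolic member, differed by 0.28 ± 0.24 with overlapping groups (adjusted p = 0.428). DNAJA4 was not detected on any array.

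In class B, 2 of 9 tested members rose, 0 fell and 7 did not pass, with a median difference of 0.03. DNAJB2, which carries ubiquitin-interacting motifs and passes clients to the proteasome, had the largest rise of any member. It read 11.97, 10.98 and 11.97 with DAMTC, against 8.62, 9.23 and 9.28 in controls. DAMTC replicate 2 was the lowest of its group and still lay above all controls, and the rise was 6.04-fold (2.59 ± 0.34, limma adjusted p = 0.00126). A second DNAJB2 probe was not detected on any array. DNAJB1, the canonical heat-inducible HSP40, read 10.89, 10.75 and 10.87 with DAMTC, against 8.90, 8.98 and 9.63 in controls. The DAMTC arrays lay close together and control replicate 3 was the highest control, and the rise was 3.18-fold (1.67 ± 0.27, limma adjusted p = 0.00307).

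DNAJB6, a strong suppressor of polyglutamine aggregation, had 4 detected probes that disagreed. The probe of highest level, annotated to transcript NM_005494, read 11.98, 12.49 and 12.16 with DAMTC, against 12.42, 12.16 and 11.95 in controls (0.03 ± 0.26, limma adjusted p = 0.942). The probe annotated to NM_058246, the transcript of the longer isoform, read 11.92, 11.81 and 12.14 with DAMTC, against 10.15, 9.87 and 10.15 in controls. Its groups stood well apart and it rose by 1.90 ± 0.24 (adjusted p = 0.000989 in a limma fit over all 13762 detected probes). The other 2 probes, also annotated to NM_005494, both differed by 0.53 in that fit. A dim one near background, detected on 5 arrays, had all DAMTC values above all controls (limma adjusted p = 0.188). The brighter one had overlapping groups (limma adjusted p = 0.340). The difference between the NM_058246 probe and the probe of highest level, taken within each array, was -0.06, -0.67 and -0.01 with DAMTC and -2.27, -2.28 and -1.80 in controls. The shift of 1.87 ± 0.25 passed in a limma fit over all 2983 probe pairs of a gene (adjusted p = 0.00465), a fit chosen after seeing the data. The probes' sequences were not used here, so which transcripts each one detects was not tested.

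**Figure D2:**
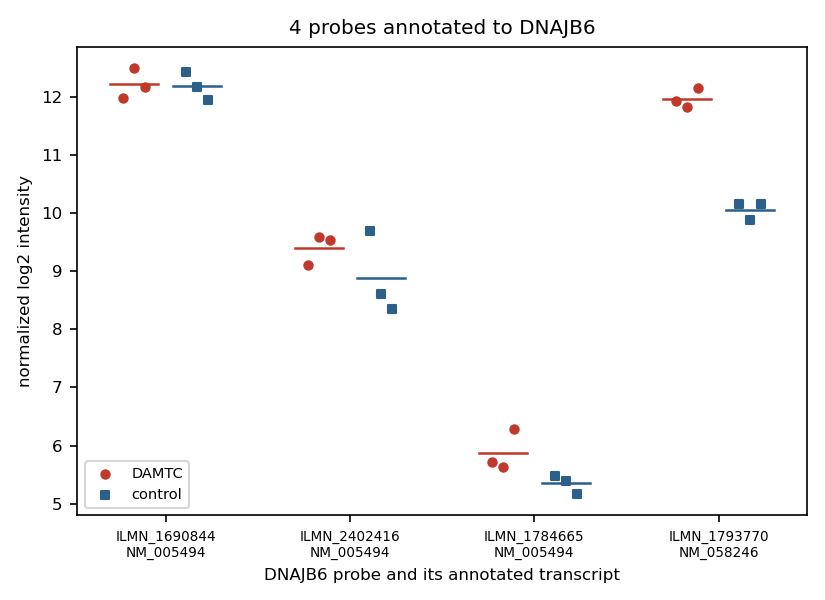
Normalized log2 intensity (y axis) of the 4 DNAJB6 probes on 3 DAMTC arrays (red circles) and 3 control arrays (blue squares), with group means as bars and the annotated transcript under each probe. The groups overlap at the probe on the left and stand apart at the NM_058246 probe on the right. At the dim probe near background they also do not overlap.

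Of the 12 pairs of a further and a chosen DNAJ probe, 2 passed that fit, beside 11.4% of all pairs. The other pair was of DNAJB12, an ER-membrane protein whose J domain faces the cytosol. Its chosen probe differed by -0.68 ± 0.25 (limma adjusted p = 0.0787, and 0.0184 with median scaling) and a dim one by 0.34 (adjusted p = 0.364). The dim probe was detected on all 3 DAMTC arrays and on 1 control array, so the size of a shift between the probes is not given. DNAJB14, a second membrane member of that kind, had 3 detected probes between -0.14 and -0.01, all with overlapping groups. DNAJB4, described as a tumour suppressor in lung adenocarcinoma, differed by 0.64 ± 0.39 (adjusted p = 0.269), and its other probe by 0.50. Control replicate 2 was its lowest array, at 7.36, against 8.90 and 8.39 in the other controls. DNAJB5 lay near background and differed by 0.29 ± 0.24 without overlap (adjusted p = 0.419). DNAJB3, DNAJB7, DNAJB8 and DNAJB13 were not detected on 3 or more arrays.

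The 5 ER-resident members did not move together: DNAJC3 rose, DNAJC10 fell, and DNAJB9, DNAJB11 and DNAJC1 did not pass. Their median difference was -0.47, beside 0.08 for the other 30 tested members. DNAJC10 (ERdj5), which reduces disulfide bonds of proteins bound for degradation, read 10.21, 10.52 and 10.47 with DAMTC, against 12.05, 11.69 and 11.72 in controls. All DAMTC values lay below all controls, and DNAJC10 fell by 1.42 ± 0.24 (2.67-fold lower, limma adjusted p = 0.00379). A second DNAJC10 probe gave -1.44 (adjusted p = 0.00724 over all detected probes). DNAJC3 (p58IPK), a co-chaperone of HSPA5 also known as an inhibitor of the kinases PKR and PERK, read 7.97, 8.60 and 8.35 with DAMTC, against 6.93, 7.59 and 7.03 in controls. Its groups did not overlap, and it rose 2.19-fold (1.13 ± 0.29, limma adjusted p = 0.0216). This DNAJC3 call did not hold without DAMTC replicate 2 (adjusted p = 0.0923), DAMTC replicate 3 (0.0778) or control replicate 3 (0.0710), nor with median scaling (0.80, adjusted p = 0.0837), and its difference was 0.72 without background correction.

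DNAJB11 (ERdj3), which binds unfolded secretory proteins directly, read 11.68, 11.65 and 12.25 with DAMTC, against 12.25, 13.11 and 13.25 in controls. Its difference of -1.01 ± 0.33 did not pass (limma adjusted p = 0.0546). DAMTC replicate 3 and control replicate 1 nearly touched, and DNAJB11 passed without control replicate 1 (-1.35, adjusted p = 0.00591) and with median scaling (-1.13, adjusted p = 0.0448). DNAJB9 (ERdj4), which restrains the stress sensor IRE1, read 11.41, 11.49 and 11.17 with DAMTC, against 12.08, 11.38 and 12.01 in controls (-0.47 ± 0.27, adjusted p = 0.249). Control replicate 2 lay among the DAMTC values. DNAJC1, a membrane member with its J domain in the lumen, read 9.31, 9.46 and 9.83 with DAMTC, against 8.84, 9.13 and 8.63 in controls (0.67 ± 0.26, adjusted p = 0.0960). Its groups did not overlap, although the test did not pass.

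HSPA5, the HSP70 these members serve, read 7.97, 7.09 and 9.20 with DAMTC, against 10.53, 12.28 and 11.41 in controls, and it fell by 3.32 ± 0.58 (limma adjusted p = 0.00432). DAMTC replicate 3 was the highest of its group and control replicate 1 the lowest of its group, as for DNAJB11. DNAJC10 had another order, with control replicate 1 the highest control.

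**Figure D3:**
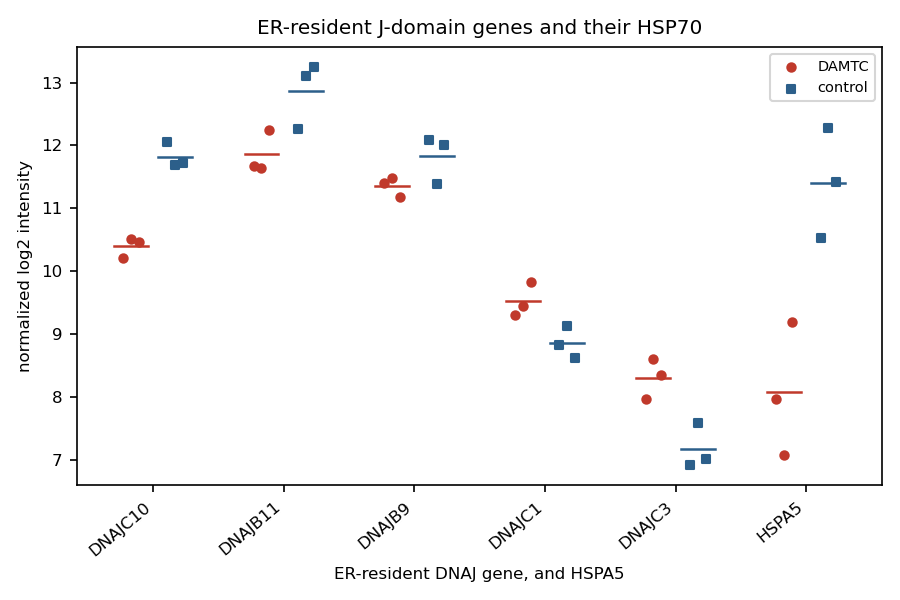
Normalized log2 intensity (y axis) of the 5 ER-resident members and of HSPA5 on 3 DAMTC arrays (red circles) and 3 control arrays (blue squares), with group means as bars. DNAJC10 and HSPA5 lie lower with DAMTC, DNAJC3 lies higher, DNAJB11 nearly touches between groups and DNAJB9 overlaps.

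Class C, the ER-resident members included, had 23 tested genes, of which 5 rose, 3 fell and 15 did not pass, with a median difference of 0.01. DNAJC27, a Rab-like GTPase with a J domain, read 9.28, 9.30 and 9.38 with DAMTC, against 7.09, 7.82 and 7.73 in controls. Its DAMTC arrays agree closely and stand above all controls, a rise of 3.41-fold (1.77 ± 0.27, limma adjusted p = 0.00232). DNAJC24 (DPH4), needed to make diphthamide on elongation factor 2, read 9.844, 9.995 and 9.9997 with DAMTC, against 7.86, 8.60 and 8.20 in controls. It rose 3.31-fold without overlap (1.73 ± 0.26, adjusted p = 0.00234). DNAJC5, the cysteine string protein of secretory vesicles, read 8.38, 8.19 and 8.20 with DAMTC, against 6.75, 6.84 and 7.01 in controls. Both groups were tight and the rise was 2.63-fold (1.39 ± 0.23, limma adjusted p = 0.00321). Without background correction DNAJC5 differed by 0.85 and still passed.

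DNAJC25, a J-domain membrane protein, read 9.97, 10.04 and 10.30 with DAMTC, against 9.51, 8.84 and 9.21 in controls. It rose 1.89-fold without overlap (0.92 ± 0.26, limma adjusted p = 0.0337), a call lost without any 1 array other than control replicate 1 (adjusted p from 0.0791 to 0.135) and with median scaling (0.63, adjusted p = 0.114). The probe annotated to the readthrough DNAJC25-GNG10 differed by 0.19 ± 0.31 (adjusted p = 0.704). DNAJC17, a nuclear member with an RNA recognition motif, read 6.48, 7.25 and 6.80 with DAMTC, against 7.86, 7.70 and 8.22 in controls. It fell by 1.08 ± 0.29 without overlap (limma adjusted p = 0.0248), a call that did not hold without DAMTC replicate 1, DAMTC replicate 3 or control replicate 3 (adjusted p from 0.0850 to 0.0979), and whose size was -0.62 without background correction. DNAJC30, a mitochondrial member, was not detected on any DAMTC array, where it read 5.18, 5.11 and 4.64, against 5.65, 6.20 and 5.93 in controls. Few beads lay behind its probe: 19, 13 and 17 on the DAMTC arrays, and 19, 16 and 17 on the control arrays. With the background offset of 16, its difference was -0.95 (limma adjusted p = 0.0314 among genes that passed the filter), a value that rests on undetected DAMTC signals. At that offset DNAJC30 was at least 1.51-fold lower with DAMTC, a bound that was not itself tested. This bound takes, on each DAMTC array, the higher of the gene's own value and the lowest detected signal. The DNAJC30 call was lost without any 1 array other than control replicate 1 (adjusted p up to 0.128). It was also lost without background correction (difference -0.36, adjusted p = 0.110) and with an offset of 50 (-0.54, adjusted p = 0.0775).

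**Figure D4:**
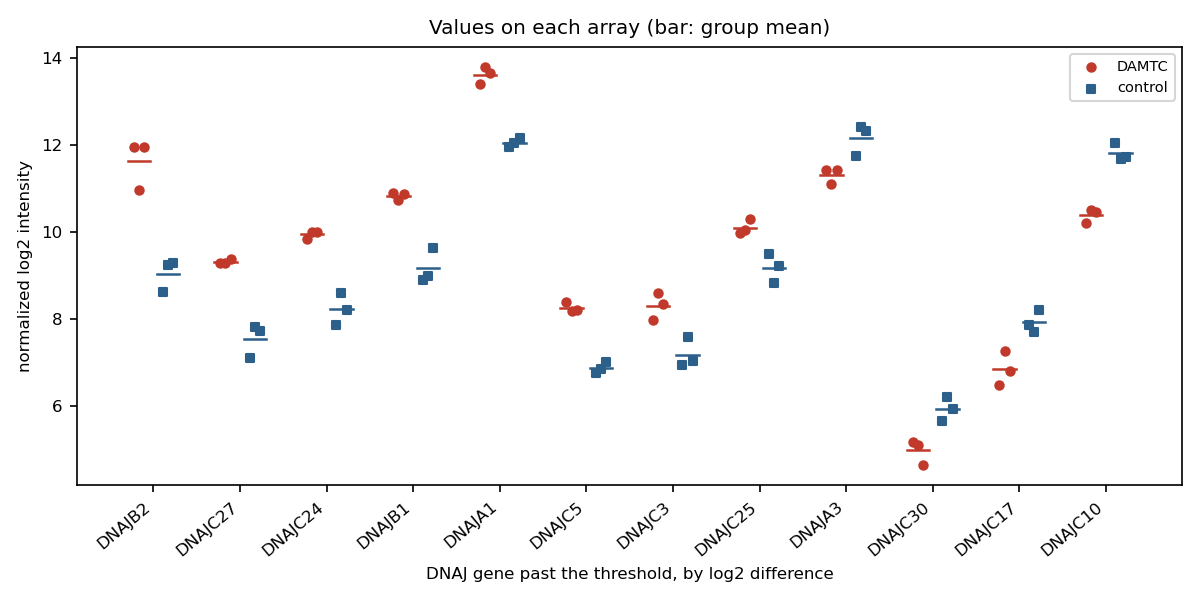
Normalized log2 intensity (y axis) of the 12 DNAJ genes past the threshold on 3 DAMTC arrays (red circles) and 3 control arrays (blue squares), with group means as bars, in the order of their log2 difference from DNAJB2 (2.59) to DNAJC10 (-1.42). For each of the 12 the groups do not overlap, and these genes were picked by a test on the same values.

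The class C members that did not pass fell into those with separate and those with overlapping groups. DNAJC9, a histone chaperone, lay higher on every DAMTC array (0.73 ± 0.28, limma adjusted p = 0.0885). DNAJC13 (RME-8), which acts on endosomes, had the largest difference among uncalled members (-1.16 ± 0.42, adjusted p = 0.0727), with 6.64, 7.64 and 6.70 with DAMTC, against 8.97, 7.67 and 7.83 in controls. DAMTC replicate 2 and control replicate 2 were nearly level. DNAJC12, a co-chaperone of aromatic amino acid hydroxylases, had 4 detected probes, all lower on average, from -0.76 (adjusted p = 0.0680) to -0.11. DNAJC18 (-0.71) and DNAJC19 (-0.39), the second a part of the mitochondrial import motor, also lay below all controls on every DAMTC array without passing (adjusted p = 0.106 and 0.259).

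DNAJC2, a ribosome-associated member, differed by 0.84 ± 0.32 (limma adjusted p = 0.0871), with control replicate 1 at 8.33 against 7.52 and 7.51 in the other controls. DNAJC22 differed by -0.66, DNAJC21, a factor of large ribosomal subunit maturation, by 0.43, and DNAJC4 by -0.34, with overlapping groups (adjusted p from 0.163 to 0.440). A further DNAJC21 probe had the opposite sign, -0.38 (adjusted p = 0.499). DNAJC7, which binds both HSP70 and HSP90, differed by 0.13, DNAJC8, a splicing-associated member, by 0.01, and DNAJC14 by -0.07 (adjusted p from 0.840 to 0.977). The bright DNAJC28 probe differed by -0.22 ± 0.23 without overlap (adjusted p = 0.538), while 3 further DNAJC28 probes were not detected on any array, so what the bright probe measures is uncertain. DNAJC11, DNAJC15, DNAJC16, DNAJC5B, DNAJC5G and DNAJC6 were not detected on 3 or more arrays. Of 6 mitochondrial members listed, 4 were tested (DNAJA3, DNAJC19, DNAJC28 and DNAJC30).

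The other parts of the HSP70 cycle were read from lists, beside 12.2% of all genes tested that rose and 12.8% that fell. Of 16 tested HSP70 and HSP110 genes, 3 rose and 3 fell, with a median difference of 0.04. HSPA4L, a cytosolic HSP110, rose (2.13 ± 0.33, limma adjusted p = 0.00251), with HSPA1B, the stress-inducible HSP70 (2.13 ± 0.50, adjusted p = 0.0160), and HSPA6. HYOU1, the HSP110 of the ER (-1.997 ± 0.58, adjusted p = 0.0368, with overlapping groups), fell with HSPA5 and HSPA13. The HYOU1 call was lost in 8 of 18 alternative settings, among them no background correction (limma adjusted p = 0.0705). It was also lost without DAMTC replicate 1, DAMTC replicate 2, control replicate 2 or control replicate 3. HSPA1A, whose sequence is nearly that of HSPA1B and may share its signal, differed by 1.21 ± 0.58 (adjusted p = 0.161). HSPA8, the constitutive cytosolic HSC70, differed by 0.71 ± 0.25 (adjusted p = 0.0727), HSPA9, the mitochondrial HSP70, by -0.31, and HSPH1 by 0.01. Over the 6 fits without 1 array, rises and falls here each numbered 1 to 4. Rises in this list numbered 1 without DAMTC replicate 1 or 3. Its falls numbered 1 without DAMTC replicate 1, DAMTC replicate 2 or control replicate 3, and 1 with the mean of a gene's detected probes.

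Among 7 tested nucleotide exchange factors, 3 rose and 1 fell, with a median of 0.85. GRPEL1, the exchange factor of mitochondrial HSP70, rose by 2.01 ± 0.26 (limma adjusted p = 0.00117), BAG3 by 1.83 ± 0.24 (adjusted p = 0.00114) and BAG4 by 1.02 ± 0.27 (adjusted p = 0.0258). The BAG4 call did not hold without any 1 DAMTC array or control replicate 3, nor with median scaling (0.69), and its difference was 0.51 without background correction. BAG5 fell by 1.496 ± 0.24 (adjusted p = 0.00288), and the falls numbered 2 without control replicate 1 or with median scaling. Among 13 tested adaptors of HSP70 and HSP90, 4 rose and 1, TTC4, fell, with a median of 0.36. FKBP5 (1.33 ± 0.30), STIP1, which links HSP70 to HSP90 (1.22 ± 0.36), FKBP4 (1.03 ± 0.23) and TTC1 (0.95 ± 0.26) rose, with adjusted p from 0.0121 to 0.0382. These rises numbered 1 without DAMTC replicate 2 or 3 and 2 without DAMTC replicate 1, control replicate 2 or control replicate 3, or with median scaling. They numbered 5 without control replicate 1. The fall of TTC4 (-0.86, adjusted p = 0.0419) was lost without any 1 array other than control replicate 1.

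Among 18 tested folding partners of the ER lumen, 8 fell, 1 rose and 9 did not pass, with a median difference of -0.85 and 17 negative differences. Over all genes tested, 12.2% rose, 12.8% fell, and 5634 of 10779 had negative differences. HSPA5 and CRELD2 (-2.74 ± 0.75, limma adjusted p = 0.0290) had the largest falls, and HYOU1 belongs here too. CRELD2 groups overlapped, with DAMTC replicate 3 at 10.90 and control replicate 1 at 10.69. The CRELD2 call was lost in 6 of 18 alternative settings, among them no background correction (limma adjusted p = 0.0585). ERO1A, the ER oxidase, rose (1.86 ± 0.25, adjusted p = 0.00129). Without control replicate 1, the falls numbered 11. They numbered 2 without DAMTC replicate 1 or 2, 5 without DAMTC replicate 3, 3 without control replicate 2 and 4 without control replicate 3. Without background correction there were 5 falls. Of 4 tested J-domain genes with other names, SEC63, the J-domain subunit of the ER translocation channel, fell (-1.48 ± 0.31, adjusted p = 0.00925). With probes detected on all 6 arrays, which takes another SEC63 probe, it differed by -0.51 (adjusted p = 0.251), and without background correction by -0.64. GAK, HSCB and PAM16 did not pass.

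**Figure D5:**
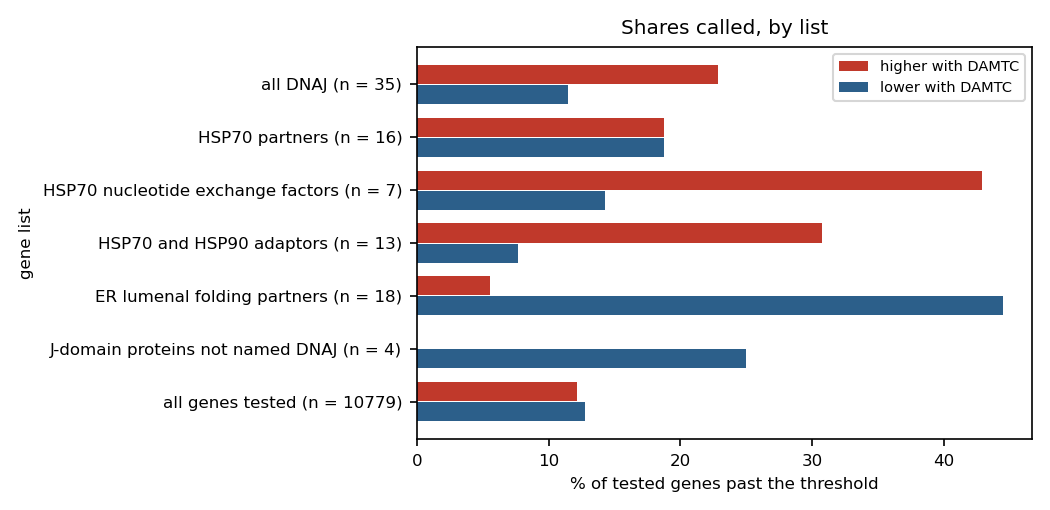
Percent of tested genes past the threshold (x axis) that were higher (red) or lower (blue) with DAMTC, for the DNAJ genes, 5 lists of partners and all 10779 genes tested, with the number tested beside each name. Of the DNAJ genes 8 of 35 rose and 4 fell, while of the ER lumenal partners 1 of 18 rose and 8 fell.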

How the data were processed

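The deposited table held 48803 probes on 6 arrays. Its values, per the file headers, are average bead signals, with a detection p-value beside each, and the table is labelled non-normalized. The headers do not say whether background had been subtracted. BeadStudio is named per the submitters' processing notes, its version not stated. A deposited matrix of processed intensity values was linear in them (largest residual 0.0107) and served as an alternative. R 4.3.3 and limma 3.58.1 were used. The nec function removed background estimated from detection p (offset 16), followed by quantile normalization and log2. Gene names came from 27578 probes with 1 symbol, and the detected probe of highest mean level stood for its gene. The comparison used lmFit and eBayes over all 10779 genes and a threshold of 0.05 on the Benjamini-Hochberg adjusted p. Every detected member is named. Of the partner lists, up to 4 called members per list and 6 HSP70 genes are described with errors, and other names were chosen after their values were seen. Members, lists and tests were chosen with earlier results of these data known. Promoter windows are RefSeq's. The path was run on simulated intensities with known changes. The noise put on each log2 level was set below the spread between these arrays, so that run does not measure how reliable the calls are. Same-numbered arrays deviated in opposite directions (r of -0.45, -0.46 and -0.18), so the replicate numbers were not used as pairs.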

Additional observations from a re-analysis of the deposited data

How the results depend on the processing

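The 12 called members were recomputed under up to 18 alternatives of background, scaling, filter, probe rule, moderation, weights, block and arrays left out. DNAJA1, DNAJB1, DNAJB2, DNAJC5, DNAJC24, DNAJC27 and DNAJC10 stayed past the threshold in all 18, and at adjusted p under 0.01 these 7 were the members left (6 higher, 1 lower, of 1279 genes called). The other 5 calls were each lost in at least 4 alternatives. Leaving out 1 array gave 1587 to 3721 called genes, 6 to 9 risen and 1 to 8 fallen members, and medians of -0.0029 to 0.21 over all members, 0.18 to 0.42 in class A, -0.08 to 0.18 in class B, -0.10 to 0.21 in class C and -0.70 to -0.34 in the ER-resident members. Where an array was left out, the probes and filter of the full set were kept. With median scaling or with no scaling, 6 members rose in each, 10 and 9 fell, the members' median was -0.16 and -0.17, and that of class C was -0.17 in both. The higher share of called genes was 29.5% and 29.3% there, against 48.8%. With detection on all 6 arrays 8 members rose and 2 fell, and with the mean of detected probes the class B median was 0.29. Array weights gave 4864 called genes, 10 risen and 10 fallen members, and medians of 0.21 (all members), 0.21 (class B) and 0.15 (class C). The samples share only a replicate number, and the replicate block gave 1588 called genes, 6 risen members and 1 fallen member. The causes were not tested. The sign changes were among uncalled genes near 0. With median scaling and with no scaling, DNAJB6 read -0.072 and -0.077, DNAJC25-GNG10 -0.17 and -0.17, DNAJC7 -0.16 and -0.17, DNAJC8 -0.054 and -0.059, and HSPH1 -0.085 and -0.090. DNAJB14 read 0.40 with array weights. Over the fits without 1 array, DNAJB14 ran from -0.23 to 0.31, DNAJB6 from -0.11 to 0.16, DNAJC14 from -0.29 to 0.088, DNAJC25-GNG10 from -0.017 to 0.42, DNAJC7 from -0.17 to 0.53, DNAJC8 from -0.12 to 0.21 and HSPH1 from -0.080 to 0.14. Without background correction the differences of 15 described genes were smaller by over 1.5 times. Of the 7 called among them, DNAJC5 (0.85), DNAJC3 (0.72), DNAJC17 (-0.62), BAG4 (0.51), FKBP5 (0.77) and SEC63 (-0.64) still passed, and DNAJC30 (-0.36) did not. The uncalled ones were DNAJC13, DNAJC18, DNAJC19, DNAJC21, DNAJC22, DNAJC4, DNAJB5 and DNAJC25-GNG10. An offset of 50 did the same for DNAJC30, DNAJC4, DNAJB5 and DNAJC21. These sizes depend on the background step, and 3 arrays per group limit the precision of all values.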
